A study of Mus musculus and Homo sapiens with 10 samples.

Results

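The KAP1 binding landscape of wild-type mouse embryonic stem (ES) cells comprised 45049 peaks, which were all the peaks that the authors called in 1 chromatin immunoprecipitation (ChIP) library of the line J1. A peak list of the zinc finger protein Gm6871 added 1277 peaks, so that the KAP1 peaks were 45049 of the 46326 peaks of both lists. KAP1, encoded by Trim28, is a corepressor that does not read DNA sequence by itself. It is brought to DNA by KRAB zinc finger proteins and in turn gathers the histone methyltransferase SETDB1, HP1 proteins and the NuRD complex, which together lay down and read repressive H3K9 methylation. In mouse ES cells KAP1 is known for holding endogenous retroviruses, some LINE-1 (L1) retrotransposons, imprinted regions and clusters of zinc finger genes under this mark.

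The KAP1 library came from J1 cells of strain 129S4/SvJae, labelled wild type, and was made with a custom rabbit antibody against KAP1 at 5 ug for each precipitation. The name of its peak list also holds 2i, which can stand for a culture medium. The Gm6871 library came from another line, ES3 on a C57BL/6 background, which expressed HA-tagged Gm6871 from a vector and was collected 2 days after doxycycline was added. RNA had been sequenced from ES3 cells 4 days after lentiviral transduction with a hairpin against Gm6871 (sh-Gm6871, 2 libraries) or with the empty hairpin vector (sh-empty, 2 libraries). RNA of J1 cells was not analysed here, so every L1 level below was read in another line and strain than the peaks. The culture media of J1 and ES3 were not compared here and may differ as well. Each ChIP was a single library and its input was not analysed here, so no value on the peaks has a replicate, and the 95% intervals given for peak counts (exact Poisson) and shares (exact binomial) cover counting error only. Positions are those of the mouse build mm9, counted from 1. No genome of that build was used, so peaks are described by position, and neither their sequence nor the genes beside them are given.

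The ES3 RNA libraries held 37198636 to 66050821 reads. Their cells carried the RNA of ES cells. Of the 9 ES cell markers with a single RefSeq entry, the lowest was Zfp42, at 66.5 and 70.7 RPKM (a read density per kilobase that is normalised for library size) in sh-Gm6871 libraries and 64.3 and 78.7 RPKM in sh-empty libraries. Pou5f1, the core pluripotency factor OCT4, stood at 960 and 888 RPKM in sh-Gm6871 libraries and 946 and 1175 RPKM in sh-empty libraries. Trim28 itself stood at 711 and 548 RPKM in sh-Gm6871 libraries and at 627 and 960 RPKM in sh-empty libraries, so the ranges of the groups overlapped. Among the partners of KAP1 with a single RefSeq entry, the sh-empty levels were 209 and 194 RPKM for Cbx1 and 43.5 and 38.8 RPKM for Cbx3, which encode HP1 proteins. They were 148 and 136 RPKM for Chd4, the remodelling subunit of NuRD, and 28.2 and 25.8 RPKM for Atf7ip, which stabilises SETDB1. Mphosph8, a subunit of the HUSH silencing complex, stood at 37.1 and 31.1 RPKM, and Morc3, a nuclear ATPase, at 48.8 and 52.2 RPKM. All of these 7 corepressor genes were therefore measured above 20 RPKM in all 4 libraries. The other 7 of the 14 genes of the list, Setdb1, Cbx5, Dnmt1, Dnmt3a, Dnmt3b, Dnmt3l and Uhrf1, have several RefSeq entries and were listed between 0 and 6.65 RPKM. Esrrb, an ES cell factor that also has several entries, was listed no higher than 0.0499 RPKM, so such values were not read as levels.

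KAP1 peaks were spread over the autosomes at rates that differed less than 2-fold, and they were sparse on the X chromosome. The autosomes held 44094 peaks over 2414.6 Mb between the first and last features listed, or 18.3 peaks per Mb. Chromosome 11 was the densest, with 25.4 peaks per Mb (24.5 to 26.4), followed by chromosomes 8 and 17, both with 21.7 peaks per Mb. Among autosomes, chromosome 14 was the sparsest, at 14.3 peaks per Mb (13.6 to 15.0), and chromosome 12 stood beside it at 14.5 (13.8 to 15.2). The intervals of chromosomes 14 and 12 overlapped, and those of chromosomes 8 and 17 did too. The ratio of the densest to the sparsest autosome was 1.78. The X carried 923 peaks, or 5.64 per Mb (5.29 to 6.02), which was 30.9% of the autosomal density and lay below every autosome. For peaks with a score of at least 100 the X density was 31.8% of the autosomal one. The score is the peak caller's own measure of confidence. The Y held 32 peaks over the 2.63 Mb covered, at 12.2 per Mb (8.31 to 17.2).

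The low density of the X was not seen in the number of L1 copies. The L1 table of the series lists 14949 copies longer than 5 kb, and they lay at 10.5 copies per Mb on the X and at 5.47 per Mb on autosomes, so the X had 192% of the autosomal density. The Gm6871 peaks, taken in another line, had an X density of 36.8% of the autosomal one, with 31 peaks on the X. How many X chromosomes the J1 cells carried is not in the labels and the input was not analysed here, so low binding and a low copy number of the X cannot be told apart. Across the 19 autosomes, the density of KAP1 peaks and that of L1 copies had a Spearman rho of -0.31, given as a description without a p because chromosomes share the library and differ in base composition. In 2427 autosomal windows of 1 Mb the same rho was -0.34. The 405 windows without an L1 copy held a median of 27 KAP1 peaks, those with 1 to 4 copies 17, those with 5 to 9 copies 10, and those with 10 or more copies 13. The order was therefore not a steady decline, since the windows richest in L1 lay above the class before them.

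**Figure D1:**
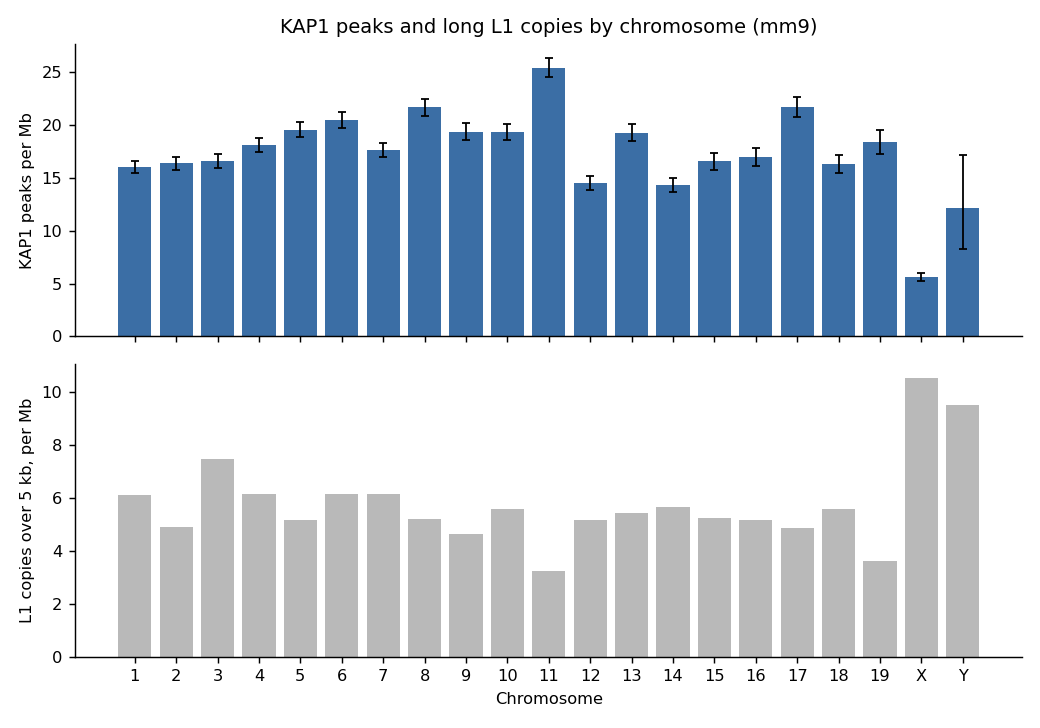
KAP1 peaks per Mb in J1 cells (top, bars with 95% Poisson intervals for counting error) and L1 copies over 5 kb per Mb (bottom) for each chromosome of mm9. Chromosome 11 is highest in KAP1 peaks at 25.4 per Mb and the X lowest at 5.64, while the X is highest in L1 copies at 10.5 per Mb.

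A typical KAP1 peak was just under 1 kb wide. The width had a median of 906 bp, with quartiles of 742 and 1100 bp, a lowest value of 258 bp and a highest of 11934 bp. In all, 82.0% of the peaks lay between 600 and 1500 bp. The peaks together covered 1.76% of the mapped span. The Gm6871 peaks were narrower, with a median of 409 bp, in a list from another antibody and line. KAP1 peaks of 2 kb or wider numbered 1650, which was 3.66% of the peaks and 9.93% of the summed width. Width and score went together, with a Spearman rho of 0.61 over the 45049 peaks, which share a caller and a library. The median width was 711 bp for scores of 50 to 60 and 1402.5 bp for scores of 500 or more. On the X the median width was 778 bp, against 909 bp on autosomes, whereas the median score was 105 on the X and 102 on autosomes. X peaks were thus narrower at a like score.

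Scores ran from 50, the lowest in the list, to 3230.05. Their median was 102.52, and 48.7% of the peaks scored under 100. At the top, 33 peaks shared a score of exactly 3100 and 8 peaks stood above it. The highest score belonged to a peak of 3646 bp on chromosome 6 (chr6:30686263-30689908). The next was a peak of 10156 bp on chromosome 4 (chr4:146025806-146035961), with a score of 3211.51 and also the third widest. Only the third of the 8, a peak of 1133 bp on chromosome 3 (chr3:134825500-134826632) with a score of 3167.53, touched a listed L1 copy, and none of the 8 met a Gm6871 peak. The widest peak of all, 11934 bp with a score of 3040.63, lay on chromosome 10 (chr10:82870575-82882508) within a run of 35 peaks. The second widest, 10661 bp, was on chromosome 4 (chr4:146839042-146849702), less than 1 Mb from the peak of 10156 bp. None of the 5 widest peaks lay on a listed L1 copy. Over all KAP1 peaks 4.28% lay on a listed L1 copy and 0.670% met a Gm6871 peak, so these low counts over few peaks say little.

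Many KAP1 peaks had a close neighbour. Of the 45028 gaps between consecutive peaks, the median was 18.9 kb and the mean 56.3 kb, and 10.3% were no longer than 1 kb. Gaps of up to 10 kb numbered 17040 (37.8%), and 77 gaps were longer than 1 Mb. The median gap was 73.8 kb on the X and 18.4 kb on autosomes. When peaks separated by at most 10 kb were chained into runs, 25886 peaks (57.5%, 57.0 to 57.9%) shared a run with at least 1 other. Of these, 4379 peaks lay in 560 runs of 6 or more. Fixed windows of 100 kb gave the same picture of unevenness. Of 25823 windows, 38.0% were empty, and 348 held 10 peaks or more. The densest 10% of the windows held 40.5% of the peaks. The variance of the window counts was 2.97 times their mean.

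**Figure D2:**
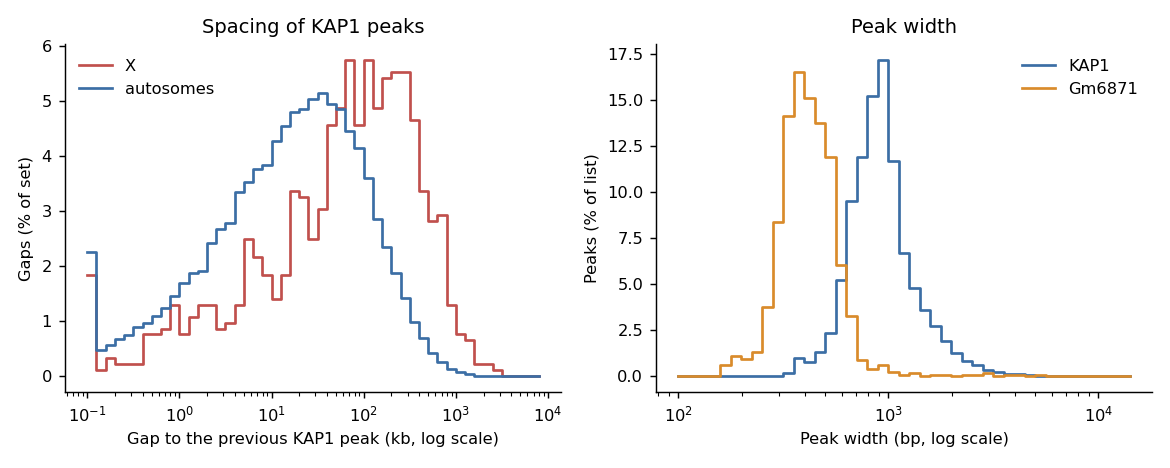
Left, gaps between consecutive KAP1 peaks on the X and on autosomes (kb, log scale; gaps under 0.1 kb are in the first bin). Right, peak widths of the KAP1 and Gm6871 lists (bp, log scale). Gaps on the X centre near 73.8 kb against 18.4 kb on autosomes, and KAP1 widths centre at 906 bp against 409 bp for Gm6871.

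Peaks in long runs had a higher median width and score than peaks standing alone, and a smaller share of them lay on L1. The median width was 1027 bp in runs of 6 or more, 932 bp in runs of 2 to 5 and 861 bp for single peaks. The median score was 121.59 in runs of 6 or more, 107.93 in runs of 2 to 5 and 93.72 for single peaks. Peaks of 2 kb or wider made up 10.2% of the peaks in runs of 6 or more, 4.35% in runs of 2 to 5 and 1.40% of single peaks. The share on a listed L1 copy ran the other way. It was 0.982% (0.712 to 1.32%) in runs of 6 or more, 2.22% (2.03 to 2.42%) in runs of 2 to 5 and 7.36% (6.99 to 7.74%) for single peaks. Seen from the L1 side, 73.1% (71.02 to 75.03%) of the 1930 peaks on L1 had no neighbour within 10 kb, against 41.2% (40.7 to 41.6%) of the peaks off L1. On autosomes alone the shares were 72.3% on L1 and 40.7% off L1, so the difference was as large without the X.

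The largest run had 51 peaks over 195 kb on chromosome 6 (chr6:37636063-37831232). Peaks covered 47.6% of it, and it held no listed L1 copy. It also contained the densest 100 kb window, with 29 peaks (chr6:37700001-37800000). A run of 35 peaks over 110 kb on chromosome 10 (chr10:82837624-82947718) was 63.3% covered and reached into windows with 20 and 19 peaks. The other windows of the top 5 held 20 peaks on chromosome 12 (chr12:88200001-88300000) and 19 peaks on chromosome 6 (chr6:136400001-136500000). None of these 5 windows held a listed L1 copy, and none had more than 1 Gm6871 peak. The share of all 100 kb windows with an L1 copy was not counted, so this is a description only.

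A run at the start of the listed part of chromosome 9 (chr9:2999904-3038619) differed from the other large ones. It packed 18 KAP1 peaks into 38.7 kb, with scores of 54.2 to 3100, and 13 of the 18 met a Gm6871 peak. Gm6871 scores there reached 470.35. Neither input was analysed here, so whether reads also pile up in this run without either antibody was not tested. The other 7 of the 8 largest runs, of 17 to 51 KAP1 peaks, each held 0 or 1 Gm6871 peak. Across the whole list 302 KAP1 peaks (0.670%, 0.597 to 0.750%) met a Gm6871 peak, and they included 297 of the 1277 Gm6871 peaks (23.3%, 21.0 to 25.7%). Without the chromosome 9 run the second share was 22.5%. The overlapping KAP1 peaks had a median score of 146.88, against 102.33 for the others. The Gm6871 peaks that met a KAP1 peak had a median score of 93.1, against 64.5 for those that did not. Of the 308 overlapping pairs, the Gm6871 peak lay wholly inside the KAP1 peak in 216 (70.1%), and the midpoints were a median of 161.5 bp apart.

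L1 copies came next, the mobile elements whose transcription starts in a promoter at their 5′ end. Of the 14949 copies, 1893 carried a KAP1 peak by an overlap of 1 bp or more, which was 12.7% (12.1 to 13.2%) of the copies, and 13056 did not. The 1930 KAP1 peaks involved were 4.28% (4.10 to 4.48%) of the list. Nearly all bound copies carried a single peak. There were 1847 such copies, 46 copies carried 2 peaks, and none carried more. Of the copies with 2 peaks, 30 were L1Md_F2, and in 17 of the 46 the peaks lay nearer opposite ends.

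Subfamilies differed widely. Among the 11 with at least 100 copies, the F types stood highest, with a peak on 73 of 268 L1Md_F copies (27.2%, 22.0 to 33.0%) and on 903 of 3677 L1Md_F2 copies (24.6%, 23.2 to 26.0%). The intervals of L1Md_F and L1Md_F2 overlapped. L1Md_F3 followed with 99 of 721 (13.7%, 11.3 to 16.5%), an interval that holds the 12.7% of all copies. L1Md_T, the most numerous, had 519 of 4981 (10.4%, 9.58 to 11.3%) and L1Md_A had 215 of 3133 (6.86%, 6.00 to 7.80%), and both lay below the share of all copies. L1Md_Gf had 9 of 124 (7.26%, 3.37 to 13.3%), which is too few to place. The older L1_Mus1, L1_Mus3, L1_Mus2, Lx and L1_Mus4 were close together at 3.98, 3.87, 3.38, 2.94 and 2.54%, with overlapping intervals. L1Md_F2 copies made up 24.6% of all copies and 47.7% of those with a peak. Peaks on L1Md_A were few but scored high, with a median of 248.69, against 121.87 on L1Md_F2 and 99.7 on L1Md_T. Reads that match several positions may be more frequent in some subfamilies than in others, and their part in these shares was not tested. The order is therefore one of called peaks.

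The share also varied with length. In L1Md_F2 it was 41.2% (30.4 to 52.8%) for the 80 copies of 6.5 kb or longer, 27.9% (25.6 to 30.3%) between 6 and 6.5 kb, 19.9% (16.7 to 23.5%) between 5.5 and 6 kb, and 22.4% (20.3 to 24.5%) below 5.5 kb. In L1Md_T it was 13.1% (10.8 to 15.6%) in the longest of these classes, 10.7% (9.31 to 12.2%) and 11.4% (9.17 to 14.02%) in the classes between, and 8.42% (7.14 to 9.85%) in the shortest. L1Md_A followed no steady order, with 5.21% (3.51 to 7.39%) in the longest class, 8.62% (6.97 to 10.5%) between 6 and 6.5 kb, 4.35% (2.74 to 6.51%) between 5.5 and 6 kb and 7.25% (5.75 to 8.98%) in the shortest.

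**Figure D3:**
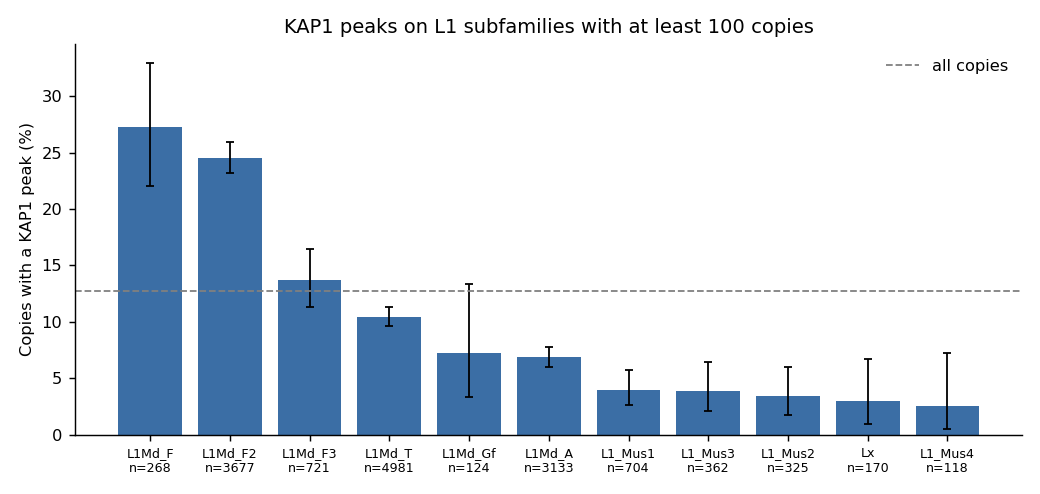
Share of L1 copies with a KAP1 peak in each subfamily of at least 100 copies (bars, with 95% binomial intervals for counting error) and over all copies (dashed line, 12.7%). L1Md_F at 27.2% and L1Md_F2 at 24.6% stand highest, and the L1_Mus and Lx subfamilies lie between 2.54 and 3.98%.

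The scarcity of KAP1 on the X extended to its L1 copies. A peak lay on 79 of 1720 X copies (4.59%, 3.65 to 5.69%) and on 1811 of 13204 autosomal copies (13.7%, 13.1 to 14.3%). No autosome came as low, the range being 9.44% on chromosome 7 to 20.2% on chromosome 6. In L1Md_F2 the shares were 7.76% (37 of 477) on the X and 27.1% (865 of 3195) on autosomes. In L1Md_T they were 3.07% on the X and 11.2% on autosomes, so the gap was also present within single subfamilies. In L1Md_A they were closer, at 5.51% on the X (19 of 345) and 7.05% on autosomes (196 of 2781). Copies without a peak were a median of 92.8 kb from the nearest KAP1 peak on the X and 41.3 kb on autosomes. Of all 13056 copies without a peak, 1127 (8.63%) had one within 5 kb.

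KAP1 sat at the ends of L1 copies. Among the 1551 copy and peak pairs with the peak's midpoint inside the copy, the midpoint was a median of 253 bp from the nearer end, and 81.5% (79.5 to 83.4%) were within 500 bp of it. Even placement along these copies would put 17.3% there. In L1Md_A the share within 500 bp was 97.7%, in L1Md_T 88.4%, in L1Md_F2 78.8% and in L1Md_F3 75.3%. Expressed as density, there were 84.6 midpoints per Mb (80.0 to 89.3) in the first 500 bp inside an end, 14.2 in the next 500 bp and 2.37 (1.85 to 3.00) between 1 and 2 kb inside. Outside the copies, 1 to 3 kb from the end, the density was 11.8 per Mb (10.95 to 12.71), and the genome as a whole had 17.5. The interior of long L1 copies thus held fewer KAP1 peaks than the flanks, and the outermost part held more. Averaged over whole copies, 17.7 midpoints per Mb (16.9 to 18.6) fell inside L1, above the density of the flanks and close to that of the genome. That average ranged over 39.9 per Mb (37.3 to 42.7) in L1Md_F2, 10.8 (9.62 to 12.0) in L1Md_T and 9.18 (7.86 to 10.7) in L1Md_A, so L1Md_F2 lay above the genome and L1Md_T and L1Md_A below it.

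The table does not give the strand of the copies, so the 5′ and 3′ ends cannot be told apart. Most peaks reached past the end into flanking sequence, and only 18.7% (17.0 to 20.5%) of the 1939 overlapping pairs had the peak wholly inside the copy, with 2.79% in L1Md_A and 35.6% in L1Md_F3. The placement of reads that match several positions may differ between the interior and the flank, and the sources used here state no rule for it. The name of the KAP1 list holds the word uniq, which may mean that only reads with a single position were kept. The part of read placement in the low density of the interior and in the peaks at the ends was not tested. The Gm6871 list gave another placement on the same copies. Its 287 midpoints inside copies were a median of 1138 bp from the nearer end, and 6.97% (4.31 to 10.6%) were within 500 bp. Of the 290 Gm6871 pairs, 96.6% (93.8 to 98.3%) were wholly inside. The fullest bin of 100 bp began at 100 bp inside the end for KAP1, with 117 midpoints per Mb, and at 1100 bp for Gm6871, with 26.4 per Mb. Between 1 and 2 kb inside the end, Gm6871 had 7.09 midpoints per Mb (6.17 to 8.11), against 0.719 (0.520 to 0.969) in the flanks. Between 2 and 3 kb inside, each list had 3 midpoints, so the deep interior was low in both.

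Copies with peaks of both proteins numbered 104, or 36.1% (30.6 to 42.0%) of the 288 copies with a Gm6871 peak. Over all L1 copies 12.7% carried a KAP1 peak. In L1Md_F2, which held 161 of the 290 Gm6871 pairs, 24.6% did. The part of subfamily in the 36.1% was not tested. In the 104 copies the KAP1 midpoint was a median of 575.5 bp from the nearer end and the Gm6871 midpoint 1199 bp. The nearest midpoints of the pair were a median of 712 bp apart. The peaks themselves overlapped in 44 of the 104 copies. Counted over peaks, 47 of 1930 KAP1 peaks on L1 (2.44%, 1.79 to 3.23%) met a Gm6871 peak, against 255 of 43119 off L1 (0.591%, 0.521 to 0.668%).

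**Figure D4:**
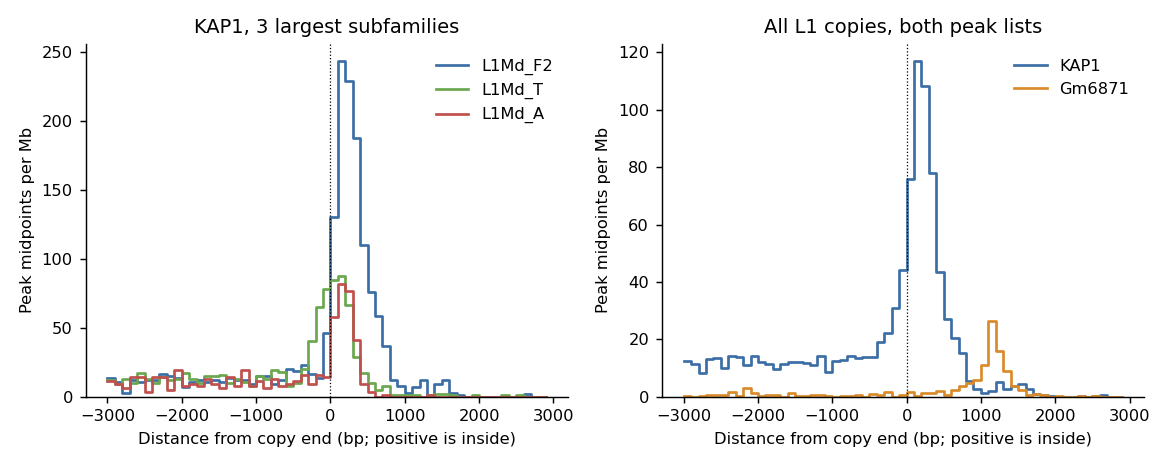
Density of peak midpoints around the ends of L1 copies in bins of 100 bp, with both ends pooled and positive distances inside the copy, for KAP1 on the 3 largest subfamilies (left) and for KAP1 and Gm6871 on all copies (right). KAP1 is highest between 100 and 200 bp inside the end, at 243 midpoints per Mb in L1Md_F2, and Gm6871 between 1100 and 1200 bp.

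The levels of L1 copies with and without a KAP1 peak were then read in the sh-empty libraries of ES3. Most copies had few reads, counted with the worked-out library totals. The median was 6 reads for copies with a peak and 5 for copies without in sh-empty library 1. In sh-empty library 2 it was 21 and 19. The median level was 0.0264 RPKM with a peak and 0.0245 RPKM without in sh-empty library 1, and 0.0565 and 0.0506 RPKM in sh-empty library 2. The share of copies at 0.1 RPKM or more was 6.44% with a peak and 5.41% without in the first of these libraries, and 27.0% with and 27.3% without in the second. Differences were taken as the mean of log2(RPKM + 0.1) over copies with a peak minus that over copies without one, within each library. Over all copies this difference was 0.030 ± 0.0051 (SD, n = 2 sh-empty libraries), or a ratio of 1.02 in RPKM + 0.1. It changed sign, to -0.038, when the midpoint of the peak had to lie inside the copy. No direction was therefore read from the pooled value.

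Within most subfamilies, copies with a KAP1 peak were at the level of those without or slightly above it by this measure. The added 0.1 RPKM exceeds the level of most copies, so it makes the differences smaller than those of the RPKM themselves. Weighted over the 11 subfamilies, the log2 difference was 0.077 ± 0.031 (SD, n = 2 sh-empty libraries), a ratio of 1.05 in RPKM + 0.1. The difference was 0.055 in library 1 and 0.099 in library 2. In 9 of the 11 subfamilies it was above 0 in both sh-empty libraries, and these 9 were also above 0 in both sh-Gm6871 libraries. L1Md_F2 copies with a peak stood at medians of 0.0214 and 0.0387 RPKM, and those without at 0.0187 and 0.0333 RPKM, in sh-empty libraries 1 and 2. L1Md_A copies with a peak stood at 0.0205 and 0.0521 RPKM and those without at 0.0138 and 0.0413 RPKM, and the log2 difference was 0.15 ± 0.039 (SD, n = 2). This difference of means is raised by 1 of the 215 bound L1Md_A copies, at 273 and 288 RPKM. L1Md_T copies stood at 0.0513 and 0.170 RPKM with a peak and at 0.0475 and 0.151 RPKM without. The older subfamilies had larger differences over few bound copies, such as 0.33 ± 0.055 in L1_Mus1 with 28 bound copies and 0.53 ± 0.13 in Lx with 5 (SD, n = 2). L1_Mus4, with 3 bound copies, was below 0 in all 4 libraries, and L1Md_Gf, with 9, differed in sign between the sh-empty libraries. An exact two-sided sign-flip test over 2 libraries cannot give a p below 0.5, and no test was run.

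**Figure D5:**
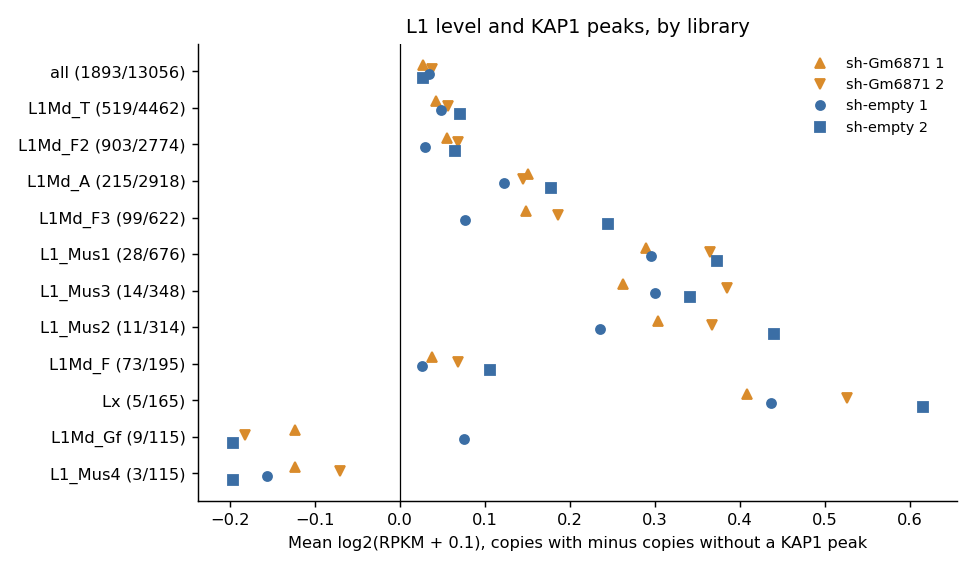
Mean log2(RPKM + 0.1) of L1 copies with a KAP1 peak minus that of copies without one, for each subfamily (number of copies with and without a peak in brackets) and each of the 4 ES3 RNA libraries. In 9 of 11 subfamilies all 4 libraries lie above 0, most by less than 0.4.

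The median level also varied with the score of the peak. Bound L1Md_T copies had lower medians where the peak scored higher. Their medians were 0.0557 and 0.220 RPKM in sh-empty libraries 1 and 2 for scores under 100 (257 copies), 0.0516 and 0.172 RPKM for scores of 100 to 200 (159 copies), and 0.0403 and 0.107 RPKM for scores of 200 or more (103 copies). The last of these medians lay below the medians of 0.0475 and 0.151 RPKM of L1Md_T copies without a peak. Both sh-Gm6871 libraries had the same order, with 0.115 and 0.139 RPKM under 100, 0.103 and 0.125 RPKM between 100 and 200, and 0.0596 and 0.0778 RPKM at 200 or more. By the mean of log2(RPKM + 0.1) the order was not kept in sh-empty library 1, where the classes stood at -2.70, -2.67 and -2.74 with rising score. Nor was it kept in sh-Gm6871 library 2, at -2.16, -2.14 and -2.30. On the same measure, copies scoring 200 or more stood at -2.736 and -2.062 in sh-empty libraries 1 and 2. L1Md_T copies without a peak stood at -2.743 and -1.987. Among the sh-empty libraries, copies scoring 200 or more were thus lower than these only in library 2. In L1Md_F2 the 266 copies with scores of 200 or more had medians of 0.0228 and 0.0452 RPKM in sh-empty libraries 1 and 2, above the 0.0211 and 0.0367 RPKM of the 283 copies between 100 and 200 and the 0.0212 and 0.0342 RPKM of the 354 copies with scores under 100. In sh-Gm6871 libraries 1 and 2 the L1Md_F2 medians were 0.0330 and 0.0468 RPKM at 200 or more and 0.0262 and 0.0323 RPKM under 100. L1Md_A had no single order. Its medians in sh-empty libraries 1 and 2 were 0.0213 and 0.0550 RPKM at 200 or more (112 copies) and 0.0158 and 0.0459 RPKM under 100 (55 copies), but in sh-Gm6871 library 1 they were 0.0335 RPKM at 200 or more and 0.0337 RPKM under 100. Its mean log2(RPKM + 0.1) was lower at 200 or more, at -3.04 and -2.66 in sh-empty libraries 1 and 2, against -2.84 and -2.48 under 100, a class that holds the copy with the highest level of all bound copies.

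Unbound copies with a KAP1 peak within 5 kb had medians of 0.0261 and 0.0530 RPKM in sh-empty libraries 1 and 2, against 0.0264 and 0.0565 RPKM for bound copies and 0.0245 and 0.0506 RPKM for all unbound copies. By the mean of log2(RPKM + 0.1) these near copies were at -2.88 and -2.47 and bound copies at -2.87 and -2.48, so their order differed between the libraries. These values pool subfamilies. Near L1Md_A copies had medians of 0.0135 and 0.0412 RPKM, against 0.0205 and 0.0521 RPKM bound and 0.0138 and 0.0413 RPKM for all unbound. Near L1Md_F2 copies had 0.0225 and 0.0384 RPKM, against 0.0214 and 0.0387 RPKM bound. Near L1Md_T copies had 0.0497 and 0.170 RPKM, against 0.0513 and 0.170 RPKM bound. The first library of each group also differed from the second in collagen RNA, a mark of fibroblasts. Col1a1 was at 9.45 and 0.453 RPKM in sh-Gm6871 libraries 1 and 2 and at 9.03 and 0.374 RPKM in sh-empty libraries 1 and 2. The summed level of the 5 fibroblast genes with a single entry, most of it Vim, was 108 and 24.5 RPKM in sh-Gm6871 libraries and 107 and 115 RPKM in sh-empty libraries. The part of this RNA in the L1 levels was not tested.

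A few copies carried a large part of the L1 reads. Copies with a KAP1 peak made up 12.7% of the summed L1 length and took 18.2 and 17.5% of the L1 reads in sh-Gm6871 libraries 1 and 2, and 19.7 and 18.3% in sh-empty libraries 1 and 2. A single L1Md_A copy on chromosome 3 (chr3:33517891-33523911) gave 69.6 and 56.9% of the reads on bound copies in sh-empty libraries 1 and 2. Its level was 273 and 257 RPKM in sh-Gm6871 libraries and 273 and 288 RPKM in sh-empty libraries. Its KAP1 peak (chr3:33517635-33518446) had a score of only 86.6, lay over the copy's lower end and shared 556 bp with it. The next bound copy, an L1Md_F2 on the X (chrX:67904934-67911755), was at 31.3 and 24.8 RPKM in sh-empty libraries, with a peak of score 58.7 wholly inside it. The other bound copies of the 5 highest, an L1Md_F2 on chromosome 4, an L1Md_T on chromosome 2 and an L1Md_F2 on chromosome 13, averaged 3.43, 2.00 and 1.83 RPKM over the sh-empty libraries.

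The highest copies without a peak reached like levels. An L1_Mur1 copy on the X (chrX:76435694-76441642) was at 302 and 273 RPKM in sh-empty libraries 1 and 2. An Lx5 copy on chromosome 3 was at 244 and 214 RPKM, an L1_Mus2 copy on chromosome 3 at 198 and 222 RPKM, an Lx copy on the X at 118 and 87.3 RPKM and an L1Md_F2 copy on the X at 101 and 88.8 RPKM. Together these 5 copies took 58.0 and 37.7% of the reads on copies without a peak in sh-empty libraries 1 and 2. At 1 RPKM or more there were 6 of the 1893 bound copies and 30 of the 13056 unbound copies in sh-empty library 1. In sh-empty library 2 there were 7 and 36. Bound copies were 12.7% of all copies. None of the 10 copies met a Gm6871 peak, but only 288 of all 14949 copies did, so little can be read from this.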

How the data were processed

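ChIP peaks of KAP1 in J1 cells and of HA-tagged Gm6871 in ES3 cells were used with RNA-seq of ES3 cells (cytoplasmic poly(A) RNA with a DNase step, per the labels' protocols). The submitters' processing notes name Bowtie 0.12.5 and the build mm9. For the caller's version, its use of the inputs and the placement of reads with several positions, nothing is stated in the sources. Each ChIP had 1 deposited list, in which every peak had a score by the authors, and peak names point to MACS. The authors deposited RPKM values for RefSeq entries and for L1 copies over 5 kb. Their 8 columns of means and fold changes in the mouse tables and the human libraries were not used here. Samples were grouped by their titles, and nothing states that replicates came from separate cultures.

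Peak starts, counted from 0 in the deposited lists, were moved by 1, whereas L1 starts were taken as counted from 1, since only then did a single total per library give whole reads for 100% of copies within 0.01 reads. Overlap meant 1 bp or more, density used the span between the first and last feature of a chromosome, and runs chained peaks with gaps of at most 10 kb. RPKM were compared as log2(RPKM + 0.1), which understates differences of low copies. Intervals are exact at 95%. No test was run, because each ChIP had 1 library and the L1 levels 2. Symbols of 27888 of the 36083 RefSeq entries came from a GRCm38.p6 gene table, and its coordinates were not used. Python 3.11.15, numpy 2.4.6, pandas 2.3.3 and scipy 1.17.1 were used, and the overlap and run steps were tested on simulated data. The peaks, lists and comparisons were chosen with earlier results of these data known. Items named were the highest scores above a tie, the 5 widest peaks, the 5 densest windows, the extreme chromosomes, subfamilies of at least 100 copies, and the 5 highest copies with and without a peak; the largest runs, the classes by score and the profile around copy ends were chosen after their values were seen. Alternatives are given in the closing section.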

Additional observations from a re-analysis of the deposited data

How the results depend on the processing

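No paired analysis was possible because no result compares groups of samples. The L1 level differences are taken within each library, and no test was run on them. Requiring the peak's midpoint inside the L1 copy gave 3.44% of KAP1 peaks on L1 and 10.2% of copies with a peak, and requiring at least 50% of the peak inside gave 3.45 and 10.3%. With KAP1 peaks of score 100 or more only, these were 4.81 and 7.41%, Gm6871 peaks with a KAP1 peak were 15.9%, peaks within 10 kb of a neighbour 44.9%, the density 8.96 per Mb and the median width 1055 bp. With at least 50% of the Gm6871 peak covered, 20.9% met a KAP1 peak. Gaps of up to 5 and 20 kb left 43.5 and 71.8% of peaks with a neighbour, and chromosome lengths taken from position 1 gave 17.1 peaks per Mb. On autosomes 13.7% of copies had a peak, an alternative chosen after seeing the data.

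The pooled log2 difference between copies with and without a peak was the least stable value. It was 0.095 and 0.010 with pseudocounts of 0.01 and 0.5 RPKM, 0.056 for copies with a mean of at least 0.1 RPKM, and 0.027 to 0.034 leaving out either sh-empty library. It reversed to -0.038 by midpoint, to -0.038 with at least 50% of the peak inside, and to -0.0024 with scores of 100 or more. The cause was not tested. The share of copies above 0 RPKM was 0.71 percentage points higher with a peak. Within subfamilies the difference was 0.077. Alternatives chosen after seeing the data gave 0.022 on autosomes and, within subfamilies, 0.071 on autosomes, 0.041 with a mean of at least 0.1 RPKM, 0.068 with scores of 100 or more and 0.049 by midpoint, so none of these within-subfamily values changed sign. Depth limits the levels, since 553 copies had no read in sh-empty library 1 and 51 in sh-empty library 2.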
